A study of Mus musculus with 10 samples.

Results

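The response of wild-type macrophages to β-1,3 glucan beads was measured on 6 of the 10 arrays of the series: the 3 arrays titled as bead-stimulated wild-type B6 and the 3 titled as unstimulated wild-type. The cells are an immortalized mouse macrophage line, a lasting culture of phagocytic cells, and each wild-type group rests on this 1 named line. Beads were given at 20 per cell for 4 h, and the controls received none. RNA was hybridised to Affymetrix arrays as biotin-labelled cDNA made from 100 ng of total RNA, with 5.5 µg of cDNA labelled. The other 4 arrays come from an immortalized line labelled as a Toll-like receptor 9 (TLR9) knockout, 2 with the same beads and 2 unstimulated. The titles number the wild-type bead arrays 10, 11 and 12 and the unstimulated ones 16, 17 and 18, and these numbers name the arrays here. Separate cultures are not stated for the arrays within a group, so p-values measure the spread between arrays only. Each value is the deposited log2 signal of 1 probe set per gene, for 19938 genes.

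Beads of β-1,3 glucan present macrophages with the sugar polymer of the fungal cell wall. The receptor that recognises it, Dectin-1 (encoded by Clec7a), signals through the kinase Syk and the adaptor Card9 to NF-kappaB, calcium-dependent and MAP kinase pathways, and drives phagocytosis, an oxidative burst and cytokine production. TLR9 is an endosomal sensor of DNA, known to be drawn to phagosomes.

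The cells carried the macrophage programme on all 6 arrays: 27 of the 27 measured macrophage identity genes lay above the array's median probe set throughout. Of markers of other cells, 0 of 14 lymphocyte genes and 0 of 17 granulocyte and mast cell genes did so, against 5 of 13 dendritic cell genes. On a fibroblast and stromal list that also holds endothelial and epithelial markers, 6 of 14 did. The share of all genes that did so was not counted, and these counts do not show that such cells were present. The macrophage list averaged 10.11 to 10.19 log2 units on the unstimulated arrays and 9.91 to 10.32 on the bead arrays. The lymphocyte list averaged 4.69 to 4.81 and 4.65 to 5.06, and the fibroblast and stromal list 5.55 to 5.78 and 5.56 to 6.04. In such bulk RNA, fewer cells of a type and less RNA per cell cannot be told apart.

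Bead array 12 stood apart from the other 5. Across genes, bead arrays 10 and 11 correlated at 0.998 with each other, but at 0.972 and 0.974 with array 12, whose closest wild-type array was an unstimulated one (array 16, 0.986). Its values were compressed: the SD over genes was 1.75, against 2.00 and 1.98 on bead arrays 10 and 11 and 1.90 to 1.96 on the unstimulated arrays, and its median probe set was the highest of the 6, at 6.10. Genes of low to moderate signal (5 to 7) had a median difference from the unstimulated mean of 0.30 on array 12 and -0.09 on arrays 10 and 11. Genes of signal 7 to 9 had medians of -0.25 and 0.09. Unstimulated array 17 differed from arrays 16 and 18 in the direction of bead arrays 10 and 11 (-0.16 and 0.04 in the same 2 ranges). The tests over all genes are therefore given with array 12 (the 10-array fit) and without it (the 9-array fit). In the latter the bead group is arrays 10 and 11. Some single genes, list medians and differences between the lines are given without array 12 only.

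**Figure D1:**
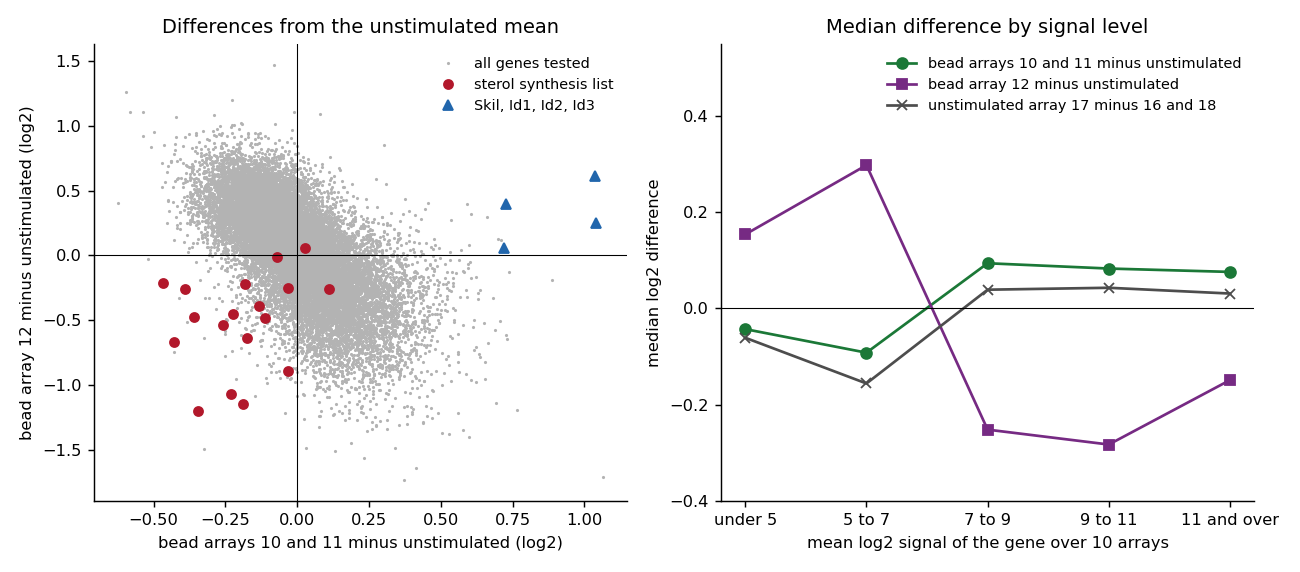
Left, log2 difference from the mean of the 3 unstimulated wild-type arrays for bead arrays 10 and 11 (horizontal) and for bead array 12 (vertical), 1 point per gene; both axes use the same unstimulated arrays. Right, median difference for genes grouped by their mean log2 signal. Array 12 has medians of 0.30 for genes of signal 5 to 7 and -0.25 for signal 7 to 9, opposite in sign to bead arrays 10 and 11; the sterol synthesis list lies mostly in the lower left and Skil and the Id genes in the upper right.

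Among wild-type cells, beads gave small differences, and no gene passed the test with or without array 12. In the 10-array fit 0 of 19938 genes (0.0%) had an adjusted p under 0.05 by limma with Benjamini-Hochberg adjustment, and in the 9-array fit also 0 (0.0%), where the smallest adjusted p was 0.0831. At an unadjusted p under 0.05, limma counted 113 genes higher with beads (0.567%) and 54 lower (0.271%) in the 10-array fit, and 1465 higher (7.35%) and 825 lower (4.14%) in the 9-array fit. Differences of at least 1 log2 unit, which is 2-fold, numbered 0 in the 10-array fit and 3 in the 9-array fit, all higher: Skil, Id3 and the small nucleolar RNA gene Snord58b, named after its value was seen. The 95% interval of the difference lay within 1 log2 unit of 0 on both sides for 99.5% of genes in the 10-array fit and 99.7% in the 9-array fit. Limma's array weights, which gave bead array 11 a weight of 12.1 and bead array 12 one of 0.0701 and stopped before converging, called 9174 genes in the 10-array fit, and weights estimated gene by gene called 1471. Since no gene passed, the differences below are given as measured values, with their standard errors (SE) from the fit.

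Skil had the smallest p-value of the 9-array fit and Id1 that of the 10-array fit. Skil encodes SnoN, a repressor that holds SMAD transcription factors in check and is itself a TGF-beta target. Its log2 signal was 7.09, 7.25 and 7.20 on the unstimulated arrays and 8.26, 8.17 and 7.43 on bead arrays 10, 11 and 12. All bead arrays lay above all unstimulated arrays, array 12 by the least. The difference was 1.04 ± 0.12 (SE) without array 12, a 2.06-fold higher signal with an adjusted p of 0.0831 by limma, and 0.78 ± 0.21 with it, where the adjusted p was 1. Over the other settings of the 9-array fit, its adjusted p by limma ran from 0.00889, when either knockout bead array was left out, to 0.89, when bead array 10 was, which left 1 bead array.

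The Id genes encode inhibitors of basic helix-loop-helix transcription factors and are classical BMP targets. Id1 read 7.39, 7.09 and 7.25 without beads and 7.96, 7.98 and 7.64 with them. Id3 read 6.01, 5.37 and 5.85 against 6.77, 6.80 and 6.36. For both genes the groups did not overlap, and the differences were 0.73 ± 0.10 and 1.04 ± 0.16 without array 12 and 0.62 ± 0.12 and 0.90 ± 0.18 with it. Id2 read 9.14, 9.42 and 9.22 against 10.03, 9.93 and 9.32, so that array 12 lay inside the unstimulated range. Its difference was 0.72 ± 0.11 without array 12 and 0.50 ± 0.18 with it. The adjusted p by limma in the 9-array fit was 0.107 for Id1 and 0.124 for Id2 and for Id3.

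Other genes of TGF-beta and BMP signalling, named after their values were seen, differed in both directions. Smad7, an inhibitory SMAD that blocks the receptors, read 6.12, 5.95 and 6.26 without beads and 6.54, 6.42 and 6.54 with them. Array 12 stood with its mates here, and the difference was 0.38 ± 0.11 without it and 0.40 ± 0.10 with it. Smad6, the inhibitory SMAD of the BMP branch, was higher by 0.30 ± 0.13 and 0.49 ± 0.17. The corepressors Ski and Tgif1 were higher by 0.34 ± 0.09 and 0.41 ± 0.10 on arrays 10 and 11 but overlapped with array 12. Acvrl1, which encodes the receptor kinase ALK1, was lower on arrays 10 and 11 by values of -0.25 ± 0.09, and overlapped with array 12 (-0.16 ± 0.11). A list of 27 genes drawn up around these genes after their values were seen is no evidence of its own direction: 6 members had negative differences without array 12 and 9 with it.

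**Figure D2:**
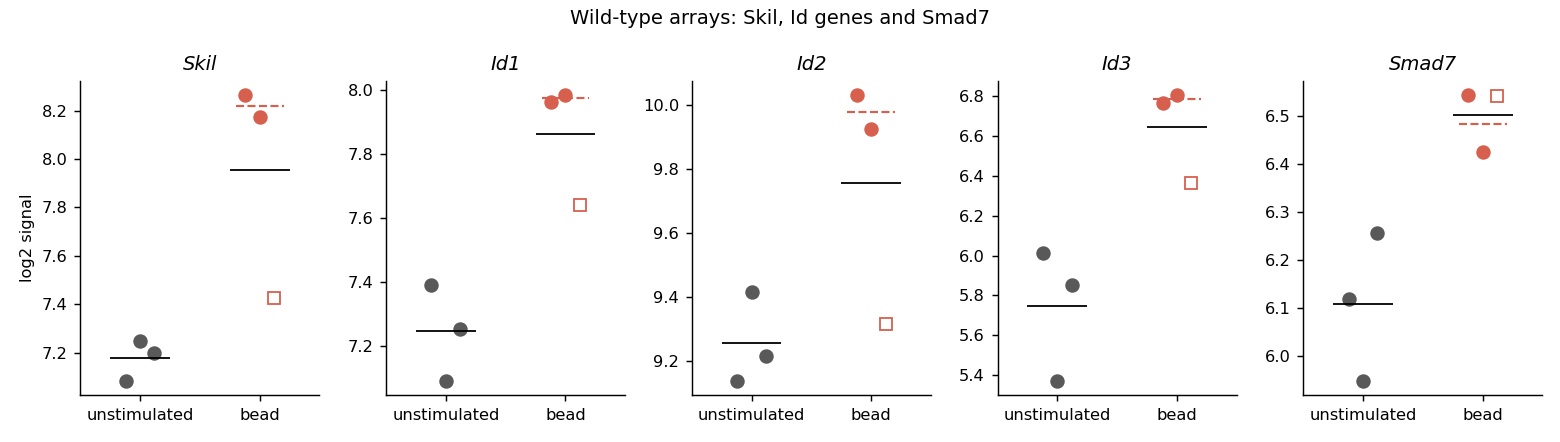
Log2 signal of Skil, Id1, Id2, Id3 and Smad7 on the 6 wild-type arrays, each panel with its own axis. Filled circles are single arrays, the open square is bead array 12, black lines are means of 3 arrays and the dashed line is the mean of bead arrays 10 and 11. For Skil all bead arrays lie above the unstimulated ones, with array 12 at 7.43 and the others at 8.26 and 8.17; for Id2 array 12 lies among the unstimulated arrays.

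Genes of sterol synthesis were lower with beads, and of the 31 lists this one had the largest share of members on the same side of the controls in all 3 bead arrays. These genes encode the enzymes that turn acetyl-CoA into cholesterol and share control by the transcription factor SREBP2, which binds sterol elements beside CCAAT boxes bound by NF-Y. Of 18 measured members, 0 passed the test, 12 lay lower on all 3 bead arrays than on any unstimulated array, against 1.24% of all genes, and 0 lay higher, against 2.29%. The median difference was -0.19 without array 12, -0.32 with it and -0.46 on array 12 alone. It kept its sign under all 5 scalings of the arrays compared (-0.29 to -0.09 without array 12, -0.34 to -0.31 with it). When arrays were centred on their median, the members lower on all 3 bead arrays numbered 5, beside 263 of all 19938 genes.

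The upstream sequences of the 3 members with the lowest 10-array differences are shown for their CCAAT letters. They are the 250 bases before the first RefSeq start listed (GRCm38.p6), on the gene's strand: Hmgcs1 at chr13:119690101-119690350 (plus strand), Msmo1 at chr8:64733579-64733828 (minus strand) and Insig1 at chr5:28071162-28071411 (plus strand). Capitals mark CCAAT on either strand (ATTGG on the other) and, in Hmgcs1 only, CACCCCA, a shortened core of the sterol element.
Hmgcs1: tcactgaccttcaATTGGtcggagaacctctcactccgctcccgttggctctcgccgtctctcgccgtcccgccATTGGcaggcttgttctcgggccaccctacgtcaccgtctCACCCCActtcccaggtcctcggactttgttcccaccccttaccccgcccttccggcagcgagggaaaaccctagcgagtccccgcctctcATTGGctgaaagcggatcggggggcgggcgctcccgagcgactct
Msmo1: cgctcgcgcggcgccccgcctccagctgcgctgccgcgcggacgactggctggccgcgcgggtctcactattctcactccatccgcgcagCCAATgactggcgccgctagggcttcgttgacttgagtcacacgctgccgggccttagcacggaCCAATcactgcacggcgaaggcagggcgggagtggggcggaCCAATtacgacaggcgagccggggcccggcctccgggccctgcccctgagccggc
Insig1: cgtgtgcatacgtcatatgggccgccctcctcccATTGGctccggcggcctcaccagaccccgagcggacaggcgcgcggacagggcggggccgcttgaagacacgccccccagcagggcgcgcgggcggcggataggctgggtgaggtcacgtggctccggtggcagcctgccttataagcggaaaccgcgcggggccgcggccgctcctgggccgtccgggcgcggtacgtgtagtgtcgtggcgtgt

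CCAAT occurred on either strand in 13 of the 14 listed sterol genes that had a promoter in the table (92.9%), and in 5541 of 15614 genes tested that had one (35.5%). CACCCCA occurred in 2 of the 14 (14.3%), Hmgcs1 and Srebf2, against 6.78% of all. The full sterol element, of which these letters are a part, occurred in 0 of the 14 and in 6 of all 15614 (0.0384%). The E-box CACGTG occurred in 3 of the 14 (21.4%), Hsd17b7, Insig1 and Sc5d, against 7.03% of all. Of the other motifs searched, those of AP-1, NF-kappaB and the antioxidant element core each occurred in 1 of the 14 (7.14%), against 3.95%, 4.16% and 10.9% of all. The remaining motifs occurred in 0 of the 14. CCAAT and CACCCCA were searched after the values were seen. A match is a string of letters in this window and no measurement of binding.

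Hmgcs1, which makes the HMG-CoA that feeds the pathway, read 8.47, 8.45 and 8.23 on the unstimulated arrays and 8.03, 7.87 and 7.71 on the bead arrays. All 3 bead arrays were lower. The difference was -0.43 ± 0.10 without array 12 and -0.51 ± 0.11 with it. Fdps, the farnesyl diphosphate synthase, read 8.72, 8.53 and 8.62 against 8.10, 8.22 and 8.41, and array 12 was here the bead array nearest to the controls. Its difference was -0.47 ± 0.12 without array 12 and -0.38 ± 0.12 with it. Mvd, the mevalonate diphosphate decarboxylase, was lower by values of -0.39 ± 0.12 and -0.35 ± 0.11, and Fdft1, the squalene synthase, by -0.36 ± 0.16 and -0.40 ± 0.15. Squalene is then oxidised by the product of Sqle, whose differences were -0.22 ± 0.08 and -0.30 ± 0.10.

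Msmo1, a demethylase late in the pathway, read 9.97, 10.17 and 9.93 without beads and 9.68, 9.68 and 8.82 with them. Insig1, which retains the SREBP machinery in the endoplasmic reticulum and is also its target, read 10.00, 9.84 and 9.89 against 9.69, 9.67 and 8.84. In both genes array 12 lay far under arrays 10 and 11, which themselves lay under every control. Without array 12 the differences were -0.35 ± 0.11 and -0.23 ± 0.12, and with it -0.63 ± 0.22 and -0.51 ± 0.22. Srebf2, the gene of SREBP2 itself, was lower by less, -0.18 ± 0.09 and -0.19 ± 0.09. Members that did not separate the groups included Mvk (0.03 ± 0.10 and 0.04 ± 0.10), Hsd17b7 (0.11 ± 0.09 and -0.01 ± 0.12), and Idi1 and Lss, where the low value was that of array 12 (6.16 and 7.47, against at least 7.04 and 8.23 on the other bead arrays). The adjusted p by limma in the 9-array fit ranged from 0.294 for Hmgcs1 to 0.914 for Lss. Msmo1 passed (adjusted p 0.00539 by limma) in the 10-array fit with the signal range of each array as a covariate, a setting added after the values were seen.

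**Figure D3:**
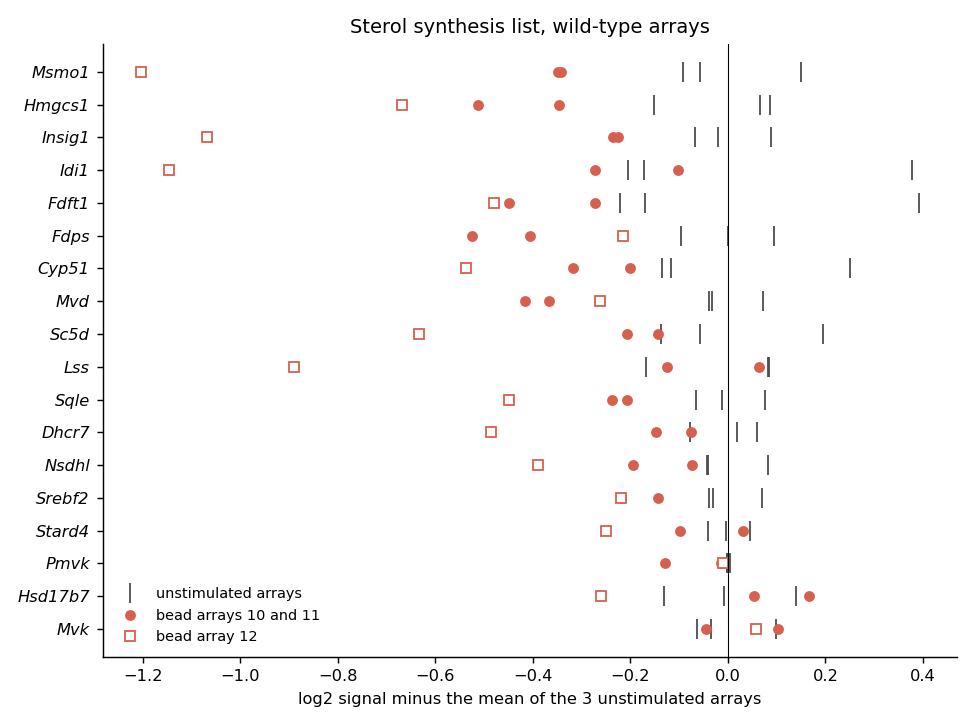
Log2 signal of the 18 measured sterol synthesis genes on each wild-type array, minus the mean of the 3 unstimulated arrays, ordered by the mean over the 3 bead arrays. Ticks are unstimulated arrays, filled circles bead arrays 10 and 11, and open squares bead array 12. For 12 genes all bead symbols lie to the left of all ticks; in Msmo1, Insig1, Idi1 and Lss the square lies far to the left of the circles.

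Several other metabolic genes were also lower on every bead array. The fatty acid desaturases Scd1 and Scd2, which SREBP factors and LXR control, had differences of -0.25 ± 0.13 and -0.23 ± 0.09 without array 12 and -0.43 ± 0.17 and -0.40 ± 0.14 with it. They belong to a list of 20 measured lipid efflux and uptake genes. Of these, 4 lay lower on all 3 bead arrays (1.24% of all genes did) and 2 higher (2.29%). Without array 12, 11 members were negative and 9 positive, with a median of -0.008, and the largest difference was a higher one (0.42). Among 21 glycolysis and hypoxia genes, 5 lay lower on all 3 bead arrays than on any control (1.24% of all genes did) and 0 higher (2.29%). Ndrg1, a hypoxia-induced gene, read 8.96, 8.76 and 8.76 against 8.47, 8.37 and 8.50, a difference of -0.41 ± 0.10 without array 12. P4ha1, a collagen prolyl hydroxylase subunit, differed by -0.28 ± 0.08, and Slc2a1, the glucose transporter GLUT1, by -0.23 ± 0.09. The glycolysis and hypoxia list's median of -0.03 without array 12 changed sign between scalings (-0.17 to 0.06).

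Outside the lists, the gene of cystathionine gamma-lyase, Cth, and the iron-regulated aconitase gene Aco1 also lay lower on every bead array. Cth read 8.52, 8.42 and 8.18 against 7.83, 8.06 and 7.63, and Aco1 read 9.50, 9.44 and 9.48 against 9.17, 9.17 and 9.15. Cth differed by -0.43 ± 0.11 and Aco1 by -0.31 ± 0.08 without array 12, and by -0.53 ± 0.13 and -0.31 ± 0.08 with it. Both were among the 12 smallest p-values of the 10-array fit and were named for that after the values were seen.

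Receptors and adaptors of the Dectin-1 pathway itself showed values that turned on array 12. Of 29 measured members, 11 lay higher on bead arrays 10 and 11 than on all controls, as 18.1% of all genes did, and 0 lay lower, as 15.4% did. With array 12 included, 1 lay higher (2.29% of all genes did): Lgals3, the glycan-binding galectin-3, at 0.10 ± 0.08. The list's median was 0.13 without array 12, 0.00 with it and -0.26 on array 12 alone. When the arrays were scaled to a common SD, it was 0.01 without array 12 and -0.03 on array 12 alone. Clec7a read 8.04, 8.12 and 7.99 without beads and 8.29, 8.49 and 7.61 with them, highest on arrays 10 and 11 and lowest of all on array 12. Its difference was 0.34 ± 0.12 without array 12 (95% interval 0.07 to 0.61) and 0.08 ± 0.21 with it.

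Downstream of the receptor, Rcan1, a calcineurin regulator that NFAT induces, read 7.70, 7.60 and 7.67 against 8.13, 8.08 and 7.55. It differed by 0.45 ± 0.08 without array 12 and 0.27 ± 0.15 with it. The paracaspase gene Malt1 (0.34 ± 0.10), and Clec4n, which encodes the fungal mannan receptor Dectin-2 (0.31 ± 0.14), were higher on arrays 10 and 11 alone. Syk and Card9 had differences of 0.11 ± 0.11 and 0.02 ± 0.10 without array 12, both within their interval of 0.

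The Toll-like receptor list held 26 measured members, of which 11 lay higher on arrays 10 and 11 than on the controls (18.1% of all genes did) and 0 lower (15.4%). On all 3 bead arrays 0 lay higher (2.29% of all genes did). Centring on the 75th percentile turned the first counts to 6 higher and 3 lower. It turned those of all 19938 genes from 3606 higher and 3068 lower to 1826 and 6781. Tlr2, a partner of Dectin-1 in the recognition of fungal particles, differed by 0.29 ± 0.08 without array 12 and 0.18 ± 0.11 with it. Tlr9 differed by -0.04 ± 0.12 and 0.07 ± 0.14. Ly96, which encodes the MD-2 partner of TLR4, read 9.01, 9.03 and 8.96 against 9.48, 9.25 and 7.26. Relative to the mean of arrays 10 and 11, array 12 stood at -2.11, the lowest such value among the genes named for this array.

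Transcription factors that stimulated macrophages are known to induce within hours had mixed values. Of 34 immediate early genes, 5 lay higher on all 3 bead arrays (2.29% of all genes did) and 2 lower (1.24%), with a median of 0.08 in both fits, and the Id genes were among the members. Jun, an AP-1 subunit, was lower: 8.91, 9.28 and 8.97 against 8.78, 8.69 and 8.72, a difference of -0.32 ± 0.11 without array 12. Among 22 NF-kappaB subunits and feedback genes, Rel, the c-Rel subunit, read 8.82, 8.77 and 8.76 against 9.25, 9.17 and 8.46, so that arrays 10 and 11 lay over the controls and array 12 under them. Its difference was 0.43 ± 0.08 without array 12 and 0.18 ± 0.18 with it. Tnfaip3, the deubiquitinase A20 that shuts NF-kappaB off, lay higher on all 3 bead arrays (0.26 ± 0.09 without array 12 and 0.21 ± 0.09 with it). The median of this list was 0.07 without array 12 and -0.01 with it.

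Cytokine messages showed small differences. Of 24 measured cytokine genes, 3 lay higher on all 3 bead arrays than on any control (2.29% of all genes did) and 0 lower (1.24%); the highest upper 95% bound of any member in the 9-array fit was 0.84. Tnf, a cytokine that glucan particles are known to induce, read 9.06, 9.01 and 8.95 without beads and 9.39, 9.27 and 9.06 with them. Array 12 stood level with the highest control, and the other bead arrays above it. The difference was 0.32 ± 0.10 without array 12, a 1.25-fold higher signal (95% interval 0.11 to 0.54), and 0.24 ± 0.11 with it. Il1rn, the interleukin-1 receptor antagonist, differed by 0.29 ± 0.08 and 0.23 ± 0.09. Il6, one of those 3, read 3.64 to 3.82 on the 6 arrays, a low signal far under the array medians of 5.75 to 6.10. It differed by 0.08 ± 0.08 and 0.11 ± 0.08, and Il1b by 0.01 ± 0.13 and 0.20 ± 0.18. The cytokine list's median was 0.01 without array 12 and 0.04 with it, and the chemokine list's 0.02 and 0.06. Ccl2, the monocyte chemoattractant, was higher by 0.36 ± 0.12 on arrays 10 and 11, with array 12 below all controls (9.61, against 9.64 to 9.73).

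Single genes, most of them from other lists and chosen for the size of their differences, had the following values. Gpr84, a receptor for medium-chain fatty acids, read 7.87, 7.84 and 7.71 against 8.64, 8.46 and 7.68. Its difference was 0.74 ± 0.17 without array 12 and 0.45 ± 0.25 with it. C5ar1, the receptor of complement fragment C5a, differed by 0.48 ± 0.10 without array 12 and 0.35 ± 0.13 with it. Acod1, which makes itaconate, read 8.60, 8.28 and 8.42 against 8.93, 9.01 and 8.71, and the groups did not overlap. It differed by 0.54 ± 0.10 without array 12 and 0.45 ± 0.12 with it. Mmp12, the macrophage elastase, read 6.97, 7.12 and 7.08 against 7.66, 7.64 and 7.46, likewise without overlap, and differed by 0.59 ± 0.14 and 0.53 ± 0.14. Trem1, an amplifying receptor of myeloid cells, differed by 0.31 ± 0.08 and 0.39 ± 0.10, and array 12 was its highest array. It lay outside the lists and was named after the values were seen, for its small p-value in the 10-array fit. Alox15, a lipoxygenase of low signal here, had the opposite sign on arrays 10 and 11 (-0.31 ± 0.09) and was highest on array 12 (5.37, against 5.09 to 5.24 on the controls). Of 16 growth factor and vessel genes, 2 lay higher on all 3 bead arrays (2.29% of all genes did) and 2 lower (1.24%). The growth factor genes Pdgfb and Hbegf were the higher ones, by 0.26 ± 0.08 and 0.19 ± 0.08 without array 12, and the lower ones were Hgf (-0.20 ± 0.11), the hepatocyte growth factor, and Vegfa (-0.16 ± 0.09), the vascular one.

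At the deposited scale, many antioxidant genes under the transcription factor NRF2 lay higher on bead arrays 10 and 11 but not on array 12. The counts depended on the scaling. Of 23 measured members, 15 lay above all controls on arrays 10 and 11 (18.1% of all genes did) and 1 below (15.4% did). With array 12 included 0 lay above (2.29% of all genes did) and 1 below (1.24%). When arrays were scaled to a common SD, 7 lay above on arrays 10 and 11 and 5 below. Of all 19938 genes, 3193 lay above and 3339 below at that scaling. On all 3 bead arrays, 5 members lay above with centring on the 75th percentile, 6 with quantile normalisation and 4 at a common SD. In each of these 0 lay below, and 416, 668 and 506 of all 19938 genes lay above. Centred on the median, 0 members lay above. Txnrd1, the cytosolic thioredoxin reductase, read 10.35, 10.40 and 10.40 without beads and 10.87, 10.77 and 10.40 with them. Gclc, the catalytic subunit of the first step of glutathione synthesis, read 9.65, 9.73 and 9.73 against 10.13, 10.10 and 9.70. In both, arrays 10 and 11 stood clear of the controls and array 12 among them. The differences without array 12 were 0.44 ± 0.08 for Txnrd1 and 0.41 ± 0.08 for Gclc, and with it 0.30 ± 0.12 and 0.27 ± 0.12. Gclm, the second subunit of that enzyme, differed by 0.45 ± 0.10 without array 12, Srxn1, the sulfiredoxin, by 0.57 ± 0.17, the cystine transporter gene Slc7a11 by 0.54 ± 0.18 and the growth inhibitor gene Osgin1 by 0.58 ± 0.17. Hmox1, the haem oxygenase, differed by 0.22 ± 0.07. The list's median was 0.15 without array 12 (0.05 to 0.24 over the 5 scalings) and 0.02 with it. Of its 19 members with a promoter, 5 held the antioxidant element core TGACNNNGC (26.3%, against 10.9% of all genes with one). The AP-1 letters TGAGTCA occurred in 5 (26.3%, against 3.95%) and the E-box in 0 (against 7.03%).

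**Figure D4:**
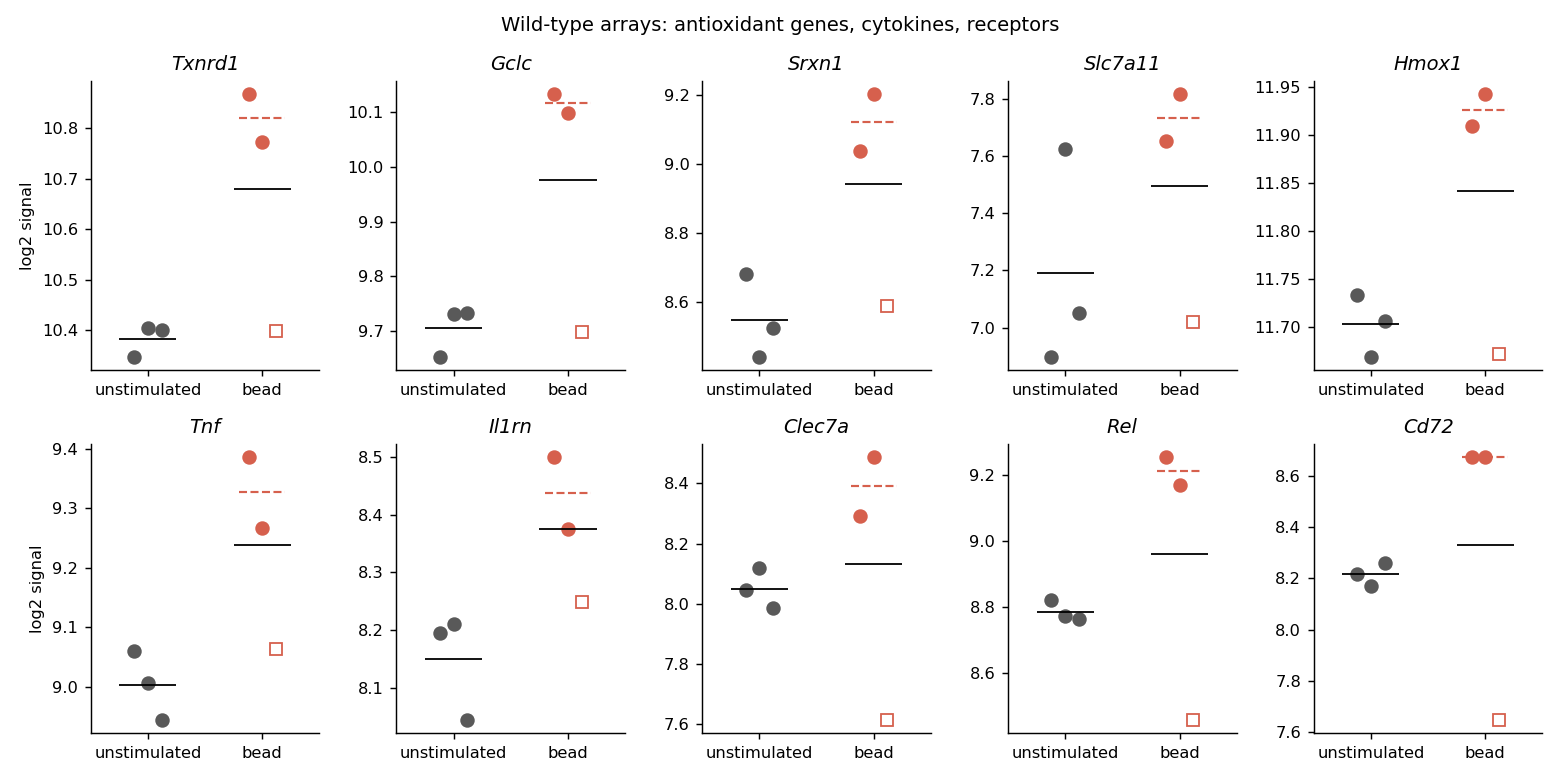
Log2 signal on the 6 wild-type arrays for 5 antioxidant genes (upper row) and for Tnf, Il1rn, Clec7a, Rel and Cd72 (lower row), each panel with its own axis. Filled circles are single arrays, the open square is bead array 12, black lines are means of 3 arrays and dashed lines means of bead arrays 10 and 11. Bead arrays 10 and 11 lie above all controls in every panel, while array 12 lies among or below the controls in all but Tnf, where it is level with the highest, and Il1rn, where it is above them.

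Genes of uptake and digestion also differed between arrays 10 and 11 and array 12 at the deposited scale. Of 33 phagocytosis and actin genes, 17 lay higher on arrays 10 and 11 than on the controls (18.1% of all genes did) and 2 lower (15.4%). At a common SD 8 lay higher and 9 lower, beside 3193 and 3339 of all 19938 genes. On all 3 bead arrays, at the deposited scale, 1 lay higher (2.29% of all genes did) and 1 lower (1.24%). Mertk, a receptor for apoptotic cells, differed by 0.46 ± 0.10 without array 12 and 0.22 ± 0.18 with it, and Myo1e, a myosin of the phagocytic cup, by 0.44 ± 0.11 and 0.13 ± 0.23. Cybb, the catalytic subunit of the phagocyte oxidase, differed by 0.46 ± 0.16 and 0.08 ± 0.30. Arpc4, a subunit of the actin-branching Arp2/3 complex outside the list, read 9.50, 9.42 and 9.32 against 10.01, 10.01 and 9.32, with array 12 level with the lowest control. It differed by 0.59 ± 0.08 without array 12, with an adjusted p of 0.107 by limma, and by 0.36 ± 0.17 with it. The medians of the phagocytosis list and of the 36 lysosome genes were 0.08 and 0.05 without array 12, 0.00 and -0.05 with it, and -0.25 and -0.26 on array 12 alone.

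Cell cycle and heat shock lists had medians above 0 on arrays 10 and 11 and below 0 on array 12 at the deposited scale. On arrays 10 and 11 only the replication list kept its sign over the scalings. On array 12 the mitosis and heat shock lists did. The 29 replication genes had a median of 0.13 without array 12 (0.03 to 0.22 over the 5 scalings). On array 12 alone their median was -0.26 (-0.50 to 0.00). Mcm10 differed by 0.36 ± 0.10 without array 12. The 25 mitosis genes had medians of 0.05 without array 12 and -0.45 on it alone, with 11 members negative on arrays 10 and 11. The first median ran from -0.06 to 0.14 over the scalings. The 12 heat shock genes had medians of 0.14 and -0.42, which were -0.004 and -0.11 at a common SD. Cenpe, a mitotic kinesin, read 8.44, 8.02 and 8.50 against 8.66, 8.66 and 6.83. Markers of cell types other than macrophages went the other way at the deposited scale. On array 12 alone the lymphocyte list had a median of 0.27 (0.02 to 0.46 over the 5 scalings) and the granulocyte list 0.30 (0.06 to 0.50). The dendritic cell list had 0.26 (0.01 to 0.45) and the fibroblast and stromal list 0.36 (0.12 to 0.56). On arrays 10 and 11 these medians were -0.07, -0.02, -0.13 and -0.11. The part of the signal range in these differences was not tested.

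**Figure D5:**
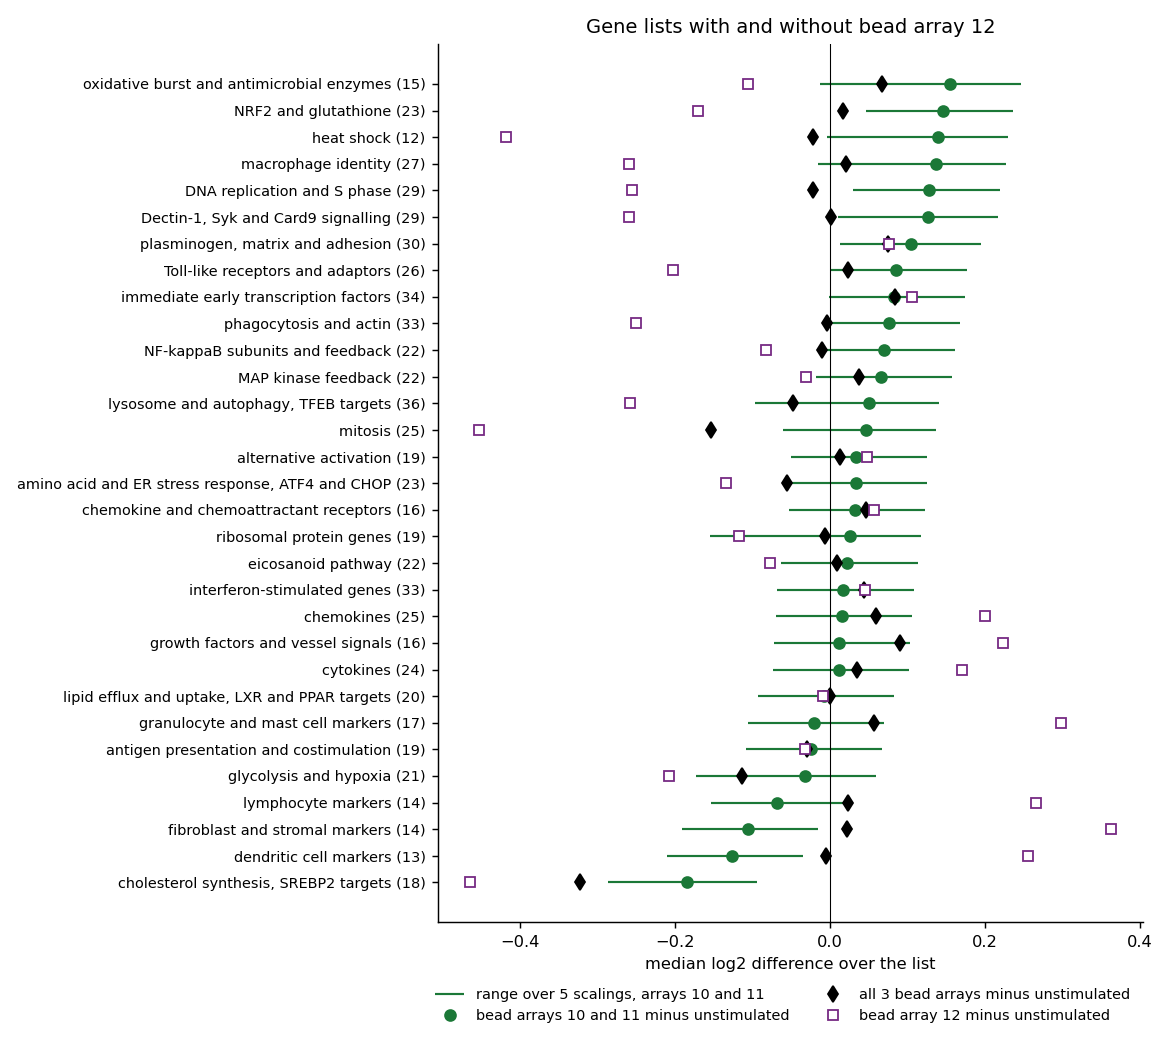
Median log2 difference from the unstimulated wild-type arrays over the measured members of 31 gene lists (members in brackets). Circles are bead arrays 10 and 11 with their range over the 5 scalings, diamonds all 3 bead arrays and squares bead array 12 alone. The sterol list lies below 0 by all symbols (-0.19, -0.32 and -0.46). For most other lists circle and square, both at the deposited scale, lie on opposite sides of 0.

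Over the 31 lists with measured members, 23 had a 9-array median that changed sign between scalings. The median over all genes did so too: without array 12 it was 0.078 with arrays centred on the median and -0.098 on the 75th percentile. Such centring shifts all genes of an array alike, so a list median near 0 can change sign by it. The lists with 1 sign under every scaling, with and without array 12, were sterol synthesis and plasminogen, matrix and adhesion (median 0.10 without array 12 and 0.08 with it). Toll-like receptors and adaptors (0.09 and 0.02) fell to 0.00 without array 12 when arrays were centred on the 75th percentile, with 13 of 26 members negative. No list member passed the test in either fit. The mitochondrially encoded genes were not analysed here.

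Whether the line labelled TLR9 knockout answered the same beads differently was tested as the difference between the responses. Its Tlr9 signal was not lower (7.44 and 7.62 without beads and 7.35 and 7.31 with them, against 6.92 to 7.32 on unstimulated wild-type arrays); where the probes lie relative to the deletion is not described, so this does not check the genotype. With array 12, 0 of 19938 genes (0.0%) differed between the responses by limma, and 172 had an unadjusted p under 0.05. Without it 1 did (0.00502%): Cd72, an inhibitory C-type lectin of B cells and myeloid cells. Cd72 read 8.22, 8.17 and 8.26 on unstimulated wild-type arrays and 8.67, 8.68 and 7.65 on bead arrays 10, 11 and 12. In the knockout line it read 9.61 and 9.56 without beads and 8.90 and 9.01 with them, lower on both bead arrays. The responses were 0.46 ± 0.08 in wild-type cells and -0.63 ± 0.08 in the knockout line, and their difference was 1.09 ± 0.11 (adjusted p 0.0381 by limma) without array 12 but 0.75, with an adjusted p of 1, with it. The call was also lost when any 1 of the 9 arrays was left out and when arrays were centred on their median or 75th percentile.

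In the knockout line 17 genes (0.0853%) passed in the 9-array fit, Cd72 and Id2 among them, but 0 (0.0%) in the 10-array fit, where the smallest adjusted p by limma was 0.514. The knockout arrays are the same in both fits, and only the spread estimated over all groups differs. Leaving 1 unstimulated wild-type array out of the 9 gave 0 to 34 genes. Sterol genes were mostly lower there too, and no sterol list member passed the test of the difference between the responses, nor did Skil, Id1, Id2 or Id3. The sterol list's median was -0.27 there, with 15 of 18 members below 0 (48.2% of all genes were), beside 16 of 18 in wild-type cells without array 12 (53.4%) and 17 of 18 with it (43.7%). Id2 rose in the knockout line, from 7.51 and 7.26 to 8.28 and 8.33 (0.91 ± 0.12, adjusted p 0.0345 by limma in the 9-array fit), and differed between the responses by -0.19 ± 0.16 (95% interval -0.54 to 0.16). Id3 differed by 0.92 ± 0.17 there, and between the responses by 0.12 ± 0.23 (-0.40 to 0.64). Skil differed by 0.50 ± 0.13 there, and between the responses by 0.54 ± 0.17 (0.15 to 0.93, adjusted p 0.918 by limma). Hmgcs1 had a difference between the responses of -0.12 ± 0.15 (-0.46 to 0.22).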

How the data were processed

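Signals of 10 Affymetrix arrays were used as deposited: log2 values per probe set, which the authors computed by RMA according to the submitters' processing notes. This method corrects background, brings arrays to a common distribution and summarises probes. Its version and settings are not given in the sources. Array medians differed (5.75 to 6.10), so how the deposited table was centred is unknown. Depth has no meaning for arrays, and their number limits the precision.

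Of 28853 probe sets, 21789 carried exactly 1 symbol in the platform annotation, 1621 several and 5443 none. Each of 19938 genes kept 1 probe set, that of the highest 10-array mean. Groups came from the labels. Linear models with 4 group means were fitted with limma 3.58.1 in R 4.3.3 (lmFit, eBayes) to all 10 arrays and to 9 without bead array 12, two-sided, with Benjamini-Hochberg adjustment over all genes and a threshold of 0.05. The fits had 6 residual and 3.23 prior degrees of freedom, and 5 and 5.16. The fitting code was tested on simulated data. For single genes named here, an exact two-sided permutation test of 3 against 3 arrays cannot go below 0.1, which it gave for 34 of the 71 genes described.

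Alternatives were a trended prior, a robust prior, arrays centred by median or by 75th percentile, quantile normalisation, a filter on low signal, wild-type groups only, all probe sets, array weights, group medians and leaving out each array; the signal range as a covariate, scaling to a common SD and gene-by-gene weights were chosen after seeing the data. The members, lists and tests were chosen with earlier results of these data known. Genes were named by a rule: up to 15 per direction that passed (none did), the 4 largest differences per list, those that passed between the lines, the 10 largest rises and drops of array 12 at a mean signal of at least 7, and Clec7a, Tlr9 and Tnf. Other genes, among them the 12 smallest p-values per fit, were named after their values were seen. The 31 lists and a list of mitochondrially encoded genes held 765 entries, of which 696 were measured, 15 lay on shared probe sets and 54, without a probe set of that name, were not analysed here. Promoter motifs were planned for genes that passed. As none did, they were counted in the sterol list, in the NRF2 list and in all genes. Figures were drawn with matplotlib 3.10.9.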

Additional observations from a re-analysis of the deposited data

Results flagged for a closer look

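Cd72 was the gene whose bead response differed between the wild-type line and the line labelled TLR9 knockout by a test of the difference itself, in the 9-array fit only. The wild-type minus knockout difference was 1.09 ± 0.11 (log2, SE; adjusted p 0.0381 by limma, 9 arrays), with both wild-type arrays higher and both knockout arrays lower than their controls. Bead array 12, left out of that fit, read 7.65, below all wild-type controls.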

How the results depend on the processing

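The arrays' number and the compressed signal of array 12 limit every value. In the 10-array wild-type fit the count of 0 became 9174 with array weights, 1471 with gene-by-gene weights and 2 (Skil, Msmo1) with the signal range as a covariate, and was 0 under all other settings. Without array 12 it became 1 (Skil) with trended eBayes, centring on the 75th percentile, quantile normalisation, the filter on low signal and a common SD, and 2 (Skil, Nes) with the wild-type groups only; leaving out each remaining array gave 0 to 1. For the difference between the responses, 10 arrays gave 9 genes with array weights and 2 with the covariate, and 0 to 1 when an array was left out; 9 arrays gave 0 with centring on the median and on the 75th percentile, and 0 in every leave-one-out fit, so the Cd72 call did not survive the loss of any array in the fit. Of the 71 genes described, 59 in the 10-array fit and 62 in the 9-array fit kept their sign under every setting other than weights. The causes were not tested. No paired analysis was possible because no replicate numbers are shared between the groups, and the title numbers are not described. The 7064 probe sets outside the gene tests gave 0 calls in both wild-type fits.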
